A study of Mus musculus with 6 samples.

Results

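Dendritic cells carry antigen from tissue to lymph node, and the cells that have switched to this task are marked by Ccr7, the receptor that guides them along CCL19 and CCL21, and by Fscn1, an actin-bundling protein of their dendrites. In a pool of lung leukocytes such cells were taken as the barcodes with at least 500 expressed genes, a count of Ccr7, and counts of at least 2 of the 5 partner genes Fscn1, Ccl22, Cacnb3, Il4i1 and Nudt17, among them Fscn1 or Cacnb3. Barcodes with any count of Cd3e (T cells), Ncr1 (NK cells), Siglech (plasmacytoid dendritic cells) or Cxcr2 (neutrophils), or with 2 or more counts of Cd79a (B cells) or C1qa (macrophages), were left out. The rule found 264 migratory dendritic cells among 24474 barcodes. The genes of the rule therefore chose the cells, and their values are given as a description only.

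The cells came from mice whose PD-1, an inhibitory receptor of activated lymphocytes, had been replaced by a humanized form. The mice were 6 to 8 weeks old, and received either a PD-1 agonist, an antibody that triggers the receptor, or an isotype control. The labels of the samples name the isotype, whereas the treatment column inside the deposited tables calls the same group Untreated, so whether these mice received an isotype antibody rests on the labels. All of the mice carried the humanized receptor, so neither treatment has a counterpart with mouse PD-1 here. Live CD45+ cells of the lung were sorted, tagged by cell hashing and mixed, 3 samples per treatment, before droplet sequencing. The title of the study names neutrophilic asthma as its setting, and the labels used here give no challenge, dose or day of treatment.

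The 6 tables of the series were not 6 independent samples. Any pair of tables of the same treatment shared 2373 to 2736 barcodes, 35.9% to 42.5% of the smaller table, whereas tables of different treatments shared 3 to 13. Each barcode was therefore counted once per treatment, and each treatment is 1 sample. No value below has a replicate check, and no difference was tested. Intervals are exact 95% intervals and cover counting error only. Of the 13728 barcodes in PD-1 agonist mice and 12448 in isotype mice, 12693 and 11781 reached 500 genes. Migratory cells were deeper than most, with a median of 6056 counts per cell in PD-1 agonist mice and 5821 in isotype mice, against 2464 and 2892 over all kept barcodes.

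Migratory cells made up a similar share of the kept lung leukocytes under both treatments. There were 138 in PD-1 agonist mice, 1.09% of the kept barcodes (95% interval 0.914 to 1.28), and 126 in isotype mice, 1.07% (0.892 to 1.27). The log2 ratio of the shares, PD-1 agonist over isotype, was 0.02. Among conventional and migratory dendritic cells together, they were 46.9% (41.1 to 52.8) in PD-1 agonist mice and 49.8% (43.5 to 56.1) in isotype mice. Both pairs of intervals overlap. The single tables gave 68, 72 and 71 migratory cells in PD-1 agonist mice and 69, 50 and 57 in isotype mice, and without the first isotype table the log2 ratio of the shares was 0.23. 

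Most members lay well inside the rule. All 5 partner genes were detected in 55 cells of PD-1 agonist mice and 49 of isotype mice, and exactly 2 partners, the minimum, in 6 and 6 cells. Just outside, 15 barcodes of PD-1 agonist mice and 1 of isotype mice had Ccr7 with a single partner gene, and 10 and 10 had at least 2 partners without Ccr7. The 15 outside barcodes in PD-1 agonist mice had a median of 2610 counts. Of genes the rule did not use, Socs2 was detected in 2 of them, Samsn1 in 6 and Tmem123 in 9. Among the 138 members these were found in 125, 136 and 135 cells. In the barcodes without Ccr7, Tmem123 was found in 8 of 10 in PD-1 agonist mice and 10 of 10 in isotype mice, and Socs2 in 4 and 3.

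The label was checked against genes outside the rule. All 12 genes of a list of general dendritic cell markers had counts under both treatments, but this alone does not set the cells apart. Of 13 B cell genes, 13 also had counts in PD-1 agonist mice and 12 in isotype mice. Flt3, the growth factor receptor of the lineage, was detected in 57.2% of migratory cells in PD-1 agonist mice and 54.8% in isotype mice. At a common depth of 2000 counts per cell these shares were 31.6% and 29.1%. In neutrophils, which should lack the gene, the shares at that depth were 1.22% and 0.766%. Zbtb46, a transcription factor of conventional dendritic cells, was likewise found in 12.03% and 11.1% of thinned migratory cells and in 0.111% and 0.328% of thinned neutrophils. Itgax, another marker outside the rule, was found in 7.52% and 5.98% of thinned migratory cells. In thinned cDC1, a conventional subset defined below, it was found in 32.35% and 44.68%. Of the 12 general markers, 5 were at least 2-fold lower and 1 higher in migratory cells than in cDC1 under both treatments. Against cDC2, the other conventional subset, 3 were lower and 2 higher. The cDC2 were themselves chosen in part by Flt3 and Zbtb46, so the levels of these genes in cDC2 were set in part by that choice. The neutrophils had a median depth of 1714.5 and 1931 counts before thinning, and those under 2000 counts were left out of the shares at common depth.

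RNA of other cell types was present and differed between the treatments. The summed level of 11 neutrophil genes in migratory cells was 1984 CPM, a unit that sets each sum of counts to the same total, in PD-1 agonist mice and 110 CPM in isotype mice, and 1 cell held 62.4% of those counts in PD-1 agonist mice. Cxcr2 was at 0 under both treatments because the rule removes it, and 10 of the 11 genes had counts in PD-1 agonist mice against 8 in isotype mice. The 20 monocyte and macrophage genes summed to 776 CPM in PD-1 agonist mice and 154 CPM in isotype mice, with 17 of 20 genes detected in each and Folr2 and Marco at 0 in both. For 16 T cell genes the sums were 459 and 617 CPM, and for 13 B cell genes 266 and 226 CPM. For 12 genes of NK and innate lymphoid cells they were 322 and 159 CPM, and 1 cell held 22.6% and 29.9% of those counts. Scrublet called 15 of the 138 migratory cells in PD-1 agonist mice doublets (10.9%) and 3 of the 126 in isotype mice (2.38%). Over all kept barcodes the shares were 9.17% and 7.89%, so the migratory cells of isotype mice lay farther from the overall share. The called cells were kept. The cells with at least 3 counts of either the neutrophil or the monocyte and macrophage list were left out in a repeat chosen after the data had been seen, which retained 112 and 110 cells.

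Set beside the resident conventional dendritic cells of the same lungs, the migratory cells carried a distinct set of transcripts. The comparison used cDC1 (68 cells in PD-1 agonist mice and 47 in isotype mice), the subset that cross-presents antigen to CD8 T cells, and cDC2 (88 and 80), the subset that mainly serves CD4 T cells, both chosen by marker rules. The cDC1 rule used Xcr1, Clec9a, Naaa, Cadm1, Wdfy4 and Snx22. The cDC2 rule used Cd209a, Clec10a, Mgl2, Flt3 and Zbtb46, and a minimum count of H2-Ab1. Levels set beside these subsets are CPM of each population's own total. Of 3917 genes measured against cDC1, 11.9% were at least 2-fold higher in migratory cells under both treatments and 11.2% at least 2-fold lower. Against cDC2 the shares were 10.5% and 12.4% of 4462 genes. Of the genes known for the migratory state and outside the rule, 29 of 31 were at least 2-fold higher than in cDC1 and 29 of 32 than in cDC2. The members were selected from these same cells by related genes, so these counts describe the population and support nothing further.

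Among genes outside the rule with at least 100 counts in migratory cells, ordered by the smaller of the ratios of the treatments, Cd200 stood farthest from cDC1. It encodes a surface glycoprotein that restrains myeloid cells through its receptor. Its level was 537 CPM in migratory cells of PD-1 agonist mice and 384 CPM in those of isotype mice, against 4.52 and 3.81 CPM in cDC1 and 6.38 and 5.95 CPM in cDC2. Socs2, a feedback inhibitor of cytokine receptors, stood at 649 and 802 CPM in migratory cells, against 12.1 and 9.54 CPM in cDC1. Il2ra, the high-affinity chain of the IL-2 receptor, stood at 116 and 142 CPM in migratory cells and at no more than 2.55 CPM in either conventional subset. Tnfrsf4, which encodes OX40, stood at 239 and 187 CPM in migratory cells, against 9.05 and 1.91 CPM in cDC1. Fabp5, a fatty acid carrier, reached 3327 and 2833 CPM in migratory cells and 92.0 and 76.3 CPM in cDC1. Over cDC1 the log2 ratios of these 5 genes ran between 4.73 and 6.89 in PD-1 agonist mice and between 5.21 and 6.65 in isotype mice. Most of the cDC1 levels rest on few counts, so these ratios and their order are imprecise. In PD-1 agonist and isotype cDC1 there were 3 and 2 counts of Cd200, 1 and 1 of Il2ra, 6 and 1 of Tnfrsf4, and 8 and 5 of Socs2.

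**Figure D1:**
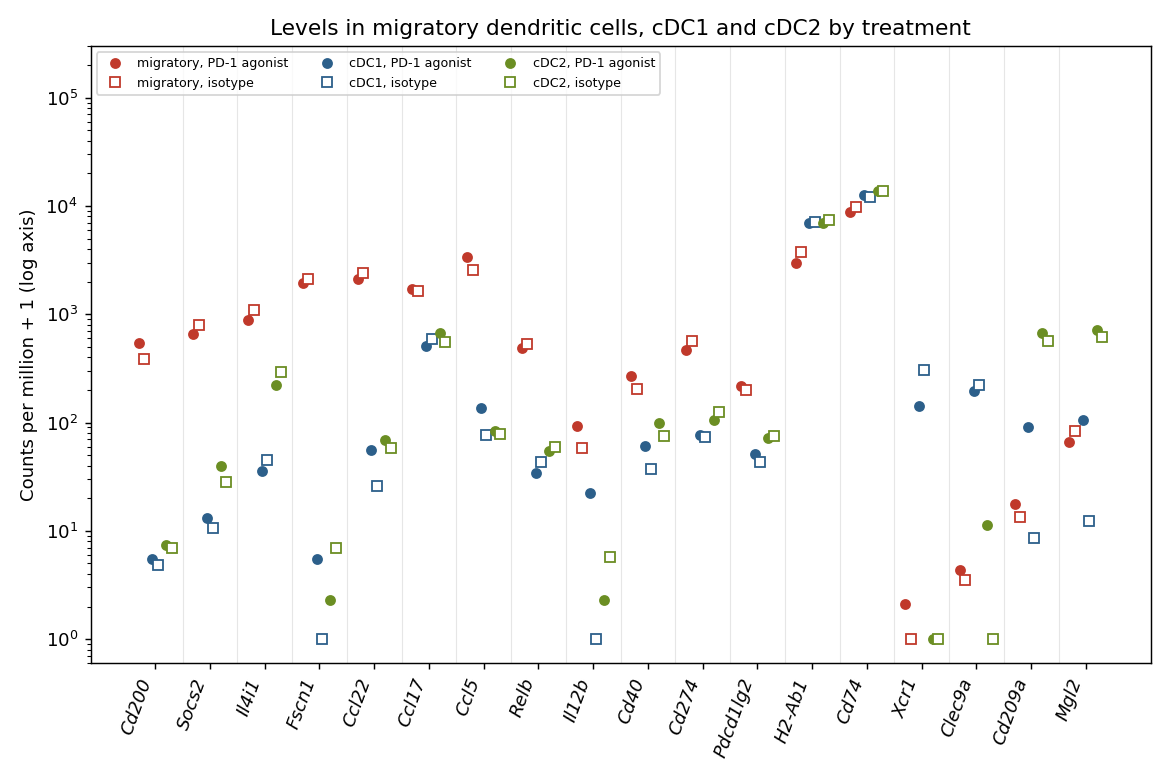
Levels of 18 genes in migratory dendritic cells, cDC1 and cDC2, as CPM with 1 added on a log axis, with PD-1 agonist as filled circles and isotype as open squares. Cd200 lies near 537 and 384 CPM in migratory cells and under 7 CPM in both other subsets, whereas Xcr1, Clec9a, Cd209a and Mgl2 are lower in migratory cells than in the subset they mark. Those markers were among the genes by which the subsets were chosen.

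Xcr1, Clec9a and Cd209a, markers of the subsets, were almost gone. Xcr1, the chemokine receptor of cDC1, had 1 count in all migratory cells of PD-1 agonist mice and 0 in those of isotype mice, where 0 counts allow a level of up to 3 counts. Clec9a, a receptor for dead cells on cDC1, had 3 and 2 counts in migratory cells, against 196 and 223 CPM in cDC1. Cd209a, a lectin of cDC2, had 15 counts in 6 migratory cells of PD-1 agonist mice and 10 counts in 2 of isotype mice. Of the cDC1 identity list 12 of 15 measured genes were at least 2-fold lower than in cDC1 under both treatments, and of the cDC2 list 11 of 16 than in cDC2. The subsets were chosen by such markers, Xcr1, Clec9a and Cd209a among them. These contrasts were therefore set in part by the choice of cells and are a description only. The lists as a whole were not absent. The cDC1 list summed to 2397 and 2064 counts in migratory cells, with at least 3 counts in 135 of 138 and 117 of 126 cells. The cDC2 list summed to 3031 and 2945 counts. Batf3, a transcription factor of the cDC1 lineage, stood at 397 and 470 CPM in migratory cells, against 240 and 263 CPM in cDC1. The antigen uptake and recognition list followed the markers, with 8 of 11 genes at least 2-fold lower than in cDC1 and 9 of 13 than in cDC2. Ly75, an endocytic receptor for antigen, went the other way, at 206 and 135 CPM in migratory cells, against 33.2 and 36.2 CPM in cDC1.

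NF-kB, the transcription factor family whose RelB and p52 members drive dendritic cell maturation, was measured by a list of 27 genes. Of its 26 measured genes 18 were at least 2-fold higher than in cDC1 and 12 than in cDC2, and none was 2-fold lower than either. Relb stood at 489 CPM in migratory cells of PD-1 agonist mice and 530 CPM in those of isotype mice, against 33.2 and 42.0 CPM in cDC1. Il15ra, which presents IL-15 to T and NK cells, stood at 174 and 118 CPM in migratory cells, against 12.1 and 11.4 CPM in cDC1 and 6.38 and 1.19 CPM in cDC2. Aldh1a2, the enzyme that makes retinoic acid, stood at 267 and 238 CPM in migratory cells and at 1.51 and 13.4 CPM in cDC1.

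MHC class II molecules present peptides to CD4 T cells, and their transcription depends on the coactivator CIITA, which maturing dendritic cells are known to switch off while the proteins already made stay at the surface. The promoters of these genes share short elements, among them the Y box, on which the complex that recruits CIITA assembles. The 160 bases before the transcription start were looked up for H2-Aa, H2-Ab1, H2-Eb1, H2-DMa, H2-DMb1, H2-DMb2 and Ciita. The reference held 5 of these 7 genes. H2-Ab1 and Ciita had no entry, so their promoters were not searched. The windows are printed for the 4 genes whose window holds the Y box core. The sequences are from RefSeq on GRCm38.p6, each 5′ to 3′ on the gene's own strand. Capitals mark the Y box core GATTGG, searched on both strands.
H2-Aa, chr17:34287824-34287983, minus strand: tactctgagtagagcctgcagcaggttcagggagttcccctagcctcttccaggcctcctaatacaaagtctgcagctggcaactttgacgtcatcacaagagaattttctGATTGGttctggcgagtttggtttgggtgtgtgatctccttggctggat
H2-Eb1, chr17:34305707-34305866, plus strand: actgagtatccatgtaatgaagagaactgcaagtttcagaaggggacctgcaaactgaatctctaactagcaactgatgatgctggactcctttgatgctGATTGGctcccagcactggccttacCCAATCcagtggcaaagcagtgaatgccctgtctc
H2-DMb1, chr17:34153031-34153190, plus strand: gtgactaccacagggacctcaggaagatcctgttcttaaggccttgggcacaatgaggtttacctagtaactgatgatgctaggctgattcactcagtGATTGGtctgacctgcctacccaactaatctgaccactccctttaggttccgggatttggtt
H2-DMb2, chr17:34145089-34145248, plus strand: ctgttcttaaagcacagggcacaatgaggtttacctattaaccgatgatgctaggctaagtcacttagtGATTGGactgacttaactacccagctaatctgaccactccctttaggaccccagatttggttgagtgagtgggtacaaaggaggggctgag
The Y box core begins 49, 60, 62 and 91 bases before the start in H2-Aa, H2-Eb1, H2-DMb1 and H2-DMb2, and H2-Eb1 has a further match on the opposite strand. Over 32851 promoters of the same window length, 11.4% hold the Y box core on either strand. Neither of the H2-DMa entries has a match in this window, and they are not printed.

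MHC class II transcripts varied widely from cell to cell. H2-Aa, H2-Ab1 and H2-Eb1, which encode chains of the presenting molecules, and Cd74, their invariant chain, were summed in each cell. In PD-1 agonist mice they took a median of 1.42% of a cell's counts, with a lowest cell at 0.0127% and a highest at 5.25%. In isotype mice the median was 2.06%, the lowest cell 0% and the highest 6.33%. The lower and upper quartiles were 0.308% and 2.73% in PD-1 agonist mice and 0.426% and 3.48% in isotype mice, and the ranges of the treatments overlap. Cells under 0.5%, a limit that cuts a continuous range, numbered 44 of 138 (31.9%) in PD-1 agonist mice and 35 of 126 (27.8%) in isotype mice, and 34 and 26 cells lay between 0.25% and 1%, near that limit.

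**Figure D2:**
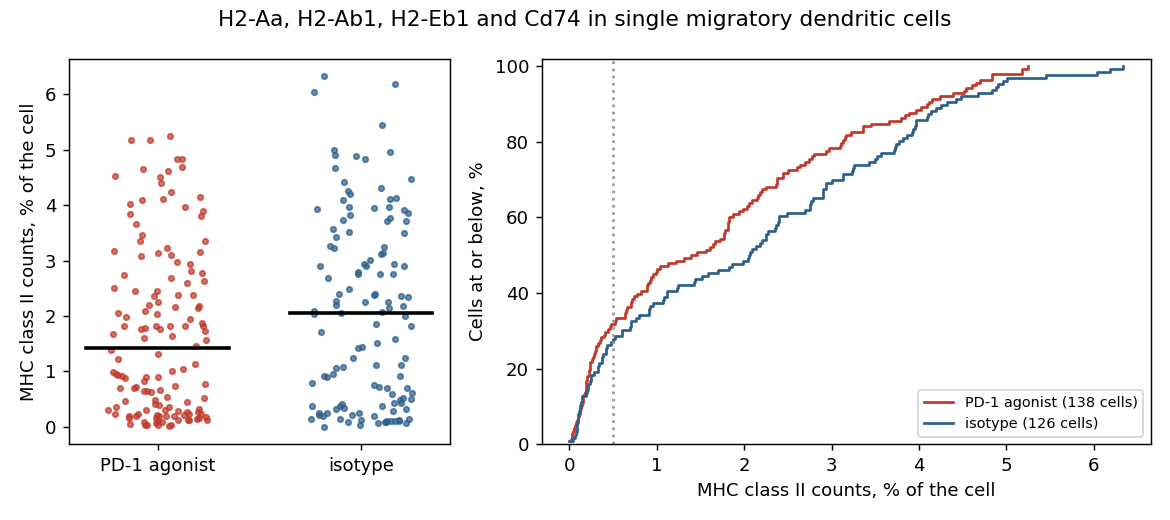
Percent of each migratory cell's counts from H2-Aa, H2-Ab1, H2-Eb1 and Cd74, as 1 point per cell with a bar at the median (left) and as cumulative percent of cells (right), PD-1 agonist in red and isotype in blue. Medians are 1.42% in 138 cells of PD-1 agonist mice and 2.06% in 126 cells of isotype mice, and the dotted line marks 0.5%.

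Other genes of the pathway varied with these 4 transcripts. Of 2941 genes detected in at least 30 migratory cells of each treatment, 15 had a Spearman correlation over cells of 0.3 or more with the MHC class II share under both treatments, and 4 had one of -0.3 or less under both. The points are cells of 1 library per treatment, and the share itself correlated with a cell's total count at 0.28 in PD-1 agonist mice and 0.26 in isotype mice. By the smaller of the correlations of the treatments, the highest were H2-DMa (0.67 in PD-1 agonist mice and 0.69 in isotype mice), H2-DMb2 (0.65 and 0.63), H2-DMb1 (0.51 and 0.54) and Ciita (0.59 and 0.50). H2-DM encodes the exchange factor that loads peptides onto class II molecules. With every cell thinned to 2000 counts, 8 of the 15 stayed at 0.3 or more under both treatments and 2 of the 4 at -0.3 or less. The correlations were then 0.50 and 0.38 for H2-DMa and 0.39 and 0.35 for Ciita, but 0.17 and 0.11 for Efhd2 and 0.17 and 0.12 for Snx20. H2-DMb1 and H2-DMb2 share 37.6% and 42.5% of their 31-base stretches with another gene, so reads may be divided between them.

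In cells split at the median MHC class II share, Ciita had 100 counts above the median and 3 below it in PD-1 agonist mice, and 82 and 14 in isotype mice. The cells above the median were also deeper, with a median of 7298 counts per cell against 5221 in PD-1 agonist mice, and 6128 against 4710 in isotype mice. As levels, Ciita was 189 CPM above the median and 8.12 CPM below it in PD-1 agonist mice, and 179 and 40.2 CPM in isotype mice. Ccnd1, a cyclin of the early cell cycle, also went with class II, at 227 CPM above and 54.1 CPM below the median in PD-1 agonist mice and 429 and 71.8 CPM in isotype mice. S100a6, a calcium-binding protein, had correlations of 0.53 and 0.46.

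Ccl5, a chemokine that attracts T cells, ran against the class II share. Its correlation was -0.45 in PD-1 agonist mice and -0.35 in isotype mice, and at 2000 counts per cell -0.45 and -0.38. Its level was 1761 CPM above and 5729 CPM below the class II median in PD-1 agonist mice, and 1568 and 3916 CPM in isotype mice. Cacnb3, a calcium channel subunit that belongs to the rule, had correlations of -0.48 and -0.32. Id2, an inhibitor of E proteins needed for dendritic cell development, had -0.37 and -0.31, and Ncoa7 had -0.37 and -0.32. At 2000 counts per cell Cacnb3 had -0.33 and -0.31, whereas Id2 had -0.27 and -0.27 and Ncoa7 -0.32 and -0.19.

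**Figure D3:**
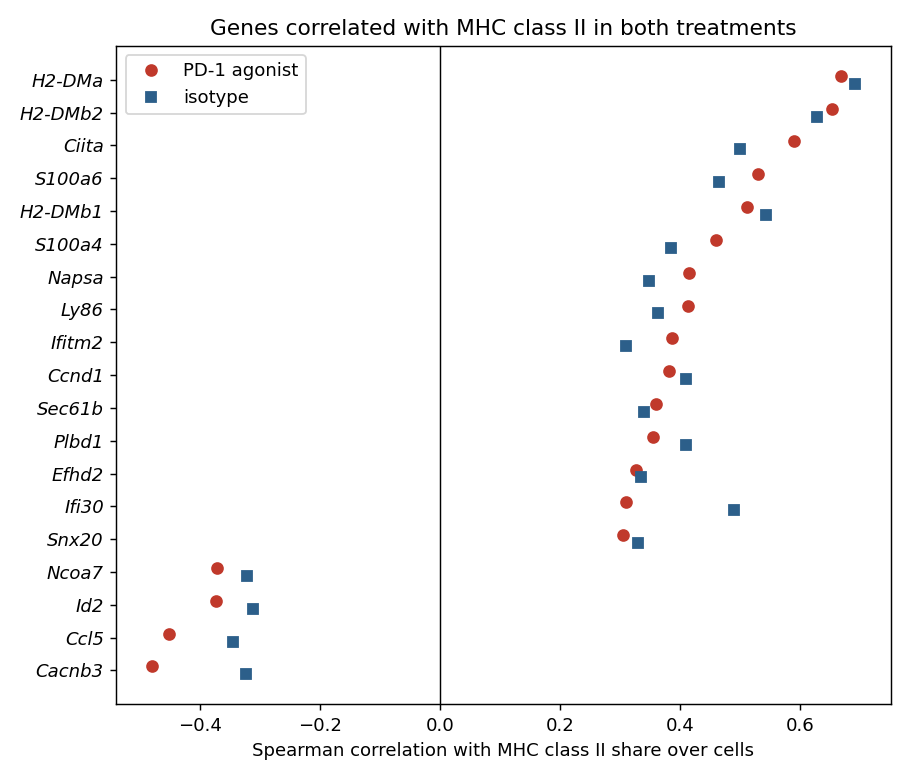
Spearman correlation over single migratory cells between each gene and the MHC class II share, for the 19 genes at 0.3 or beyond in the same direction under both treatments, PD-1 agonist as red circles (138 cells) and isotype as blue squares (126 cells). H2-DMa, H2-DMb2 and Ciita lie at the positive end, and Ccl5, Cacnb3, Ncoa7 and Id2 lie below 0.

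Most measured MHC class II genes had lower summed levels in PD-1 agonist mice, nearly all by less than 1.5-fold. Levels between treatments are CPM scaled with TMM, a correction for composition, and log2 ratios are PD-1 agonist over isotype. Over 4601 genes with at least 50 counts, the median log2 ratio was -0.02, 7.74% were at least 1.5-fold higher and 5.85% at least 1.5-fold lower. Of 12 measured genes of the MHC class II list 10 were lower and 2 higher, and the list's median was -0.24. Only H2-Oa, a modulator of peptide loading, was past 1.5-fold lower, 1 of 12 against 5.85% of all genes, at 49.6 CPM in PD-1 agonist mice and 77.5 CPM in isotype mice. The rule did not use this list, but the list was examined with earlier results known.

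H2-Ab1 stood at 2942 CPM in PD-1 agonist mice and 3807 CPM in isotype mice, a log2 ratio of -0.37 (-0.45 to -0.30). In the overlapping tables it was 2876, 3208 and 1991 CPM in PD-1 agonist mice and 4195, 3829 and 3512 CPM in isotype mice, with no overlap between the treatments, though tables of a treatment share cells. H2-Eb1 gave 2946 and 3861 CPM, a log2 ratio of -0.39 (-0.47 to -0.32), and H2-Aa gave 4364 and 5367 CPM, -0.30 (-0.36 to -0.24). H2-DMa stood at 250 CPM in PD-1 agonist mice and 330 CPM in isotype mice, -0.40 (-0.66 to -0.14). Cd74 stood at 8670 and 9826 CPM, -0.18 (-0.23 to -0.14). Ciita was nearly level, at 114 CPM in PD-1 agonist mice and 120.1 CPM in isotype mice, -0.08 (-0.50 to 0.34), between -0.26 and 0.12 without 1 table and 0.28 with cells thinned to 2000 counts. H2-DMb1 gave -0.15 (-0.56 to 0.26), between -0.40 and 0.22 without 1 table, and -0.82 without the cells holding neutrophil or monocyte counts. In the cDC2 of the same animals H2-Ab1 was 7024 CPM in PD-1 agonist mice and 7480 CPM in isotype mice, and in cDC1 it was 7001 and 7085 CPM. The cDC2 rule required a minimum count of H2-Ab1, so cells low in this gene were left out of cDC2 under both treatments. No such minimum applied to cDC1 or to the migratory cells. Whether the treatment difference differs between these populations was not tested. Without the cells holding neutrophil or monocyte counts, the list's median was -0.45 and that of the per-cell share 1.06% in PD-1 agonist mice against 2.16% in isotype mice. Leaving out 1 table at a time gave list medians between -0.38 and -0.16.

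The genes that varied with class II over cells were also set beside the treatment ratios. Of the 15 positively correlated genes 11 were lower and 4 higher in PD-1 agonist mice, with a median of -0.15, where 2427 of all 4601 genes were lower. Of the 15, 5 belong to the MHC class II list itself, and 6 of the other 10 were lower. Of the 4 negatively correlated genes 3 were higher, among them Id2 at 0.01. Ccnd1 stood at 154 CPM in PD-1 agonist mice and 278 CPM in isotype mice, a log2 ratio of -0.85 (-1.16 to -0.53), or -1.52 without the cells holding neutrophil or monocyte counts. S100a4 stood at 1733 and 2681 CPM, -0.63 (-0.72 to -0.54), but 58.1% of its 31-base stretches occur in another gene. Ccl5 was the most abundant chemokine, at 3362 CPM in PD-1 agonist mice and 2605 CPM in isotype mice, 0.37 (0.29 to 0.45). By table its level was 3208, 3048 and 3769 CPM in PD-1 agonist mice and 1944, 2821 and 3200 CPM in isotype mice, so the ranges overlap. The genes were picked on these same cells, and the 2 sets of values are not independent of each other.

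Other chemokines found in many of the cells were closer in level. Ccl17, a ligand of CCR4 on T helper 2 and regulatory T cells, stood at 1691 CPM in PD-1 agonist mice and 1667 CPM in isotype mice, a log2 ratio of 0.02 (-0.09 to 0.13). Ccl22, the other CCR4 ligand and part of the rule, stood at 2077 and 2446 CPM, -0.24 (-0.33 to -0.14). Cxcl16, a membrane-bound ligand of CXCR6, stood at 812 and 778 CPM. Ccl24, an eosinophil attractant, came from few cells, 46 and 42, at 913 and 1126 CPM, and its log2 ratio of -0.30 was 0.27 without the cells holding neutrophil or monocyte counts and 0.31 without the first isotype table. Of 11 measured chemokines 4 were higher and 7 lower, 3 of them past 1.5-fold, with a median of -0.22. Over all measured genes 5.85% were past 1.5-fold lower. Those 3, Ccl3, Ccl4 and Cxcl2, are inflammatory chemokines, and for each of them a single isotype cell held most isotype counts, 83.8%, 92.7% and 67.6%. These need not be the same cell, since Ccl3 and Ccl4 were highest in the third isotype table, at 212 and 270.4 CPM, and Cxcl2 in the first, at 352 CPM. The list's median was 0.39 without the top cell of each gene in each treatment, 0.047 when the first isotype table was left out, and 0.079 without the cells holding neutrophil or monocyte counts.

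Of the molecules that inform T cells, the ligands of PD-1 are those closest to the treatment. Cd274, which encodes PD-L1, stood at 460 CPM in PD-1 agonist mice and 575 CPM in isotype mice, a log2 ratio of -0.32 (-0.52 to -0.13). Pdcd1lg2, which encodes PD-L2, stood at 214 and 199 CPM, 0.11 (-0.20 to 0.42), and -0.07 without the second isotype table. Cd200 was higher, at 532 CPM in PD-1 agonist mice and 388 CPM in isotype mice, 0.46 (0.25 to 0.67). Its levels by table were 609, 504 and 535 CPM in PD-1 agonist mice and 402, 293 and 472 CPM in isotype mice. These do not overlap, but tables of a treatment share cells and are no replicates. Of 12 measured inhibitory genes 7 were higher and 5 lower, with a median of 0.10. Only Socs3, with 21 and 30 counts, was past 1.5-fold lower, 1 of 12 against 5.85% of all measured genes. That median lay between -0.096 and 0.20 without 1 table.

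Costimulation showed no common direction, with 5 genes higher and 5 lower and a median of -0.01, which lay between 0.018 and 0.13 without 1 table. Past 1.5-fold, 3 of the 10 genes were lower and 0 higher, against 5.85% and 7.74% of all measured genes. Cd80 and Cd86, the ligands of CD28, stood at 191 and 236 CPM in PD-1 agonist mice and 153 and 225 CPM in isotype mice. Cd40, the receptor through which T cells license dendritic cells, stood at 267 CPM in PD-1 agonist mice and 206 CPM in isotype mice, 0.37 (0.08 to 0.67). Icosl, the ligand of ICOS on follicular helper and regulatory T cells, was lower, with 38.6 CPM in 23 cells of PD-1 agonist mice and 96.3 CPM in 41 cells of isotype mice. Its log2 ratio was -1.32 (-1.94 to -0.72), and by table it was 36.9, 35.2 and 21.5 CPM in PD-1 agonist mice and 90.2, 99.6 and 101 CPM in isotype mice. The table values do not overlap, with the same limit that tables share cells. The other 2 genes past 1.5-fold lower, Tnfsf4 and Tnfsf9, had 21 and 22 counts in PD-1 agonist mice and 30 and 42 in isotype mice.

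Cytokine transcripts were rare. Il12b, the p40 chain of IL-12 and IL-23, had 82 counts in 18 cells of PD-1 agonist mice and 46 counts in 9 cells of isotype mice, a log2 ratio of 0.65 (0.11 to 1.21), and 1 isotype cell held 34.8%. Without 1 table its log2 ratio lay between 0.16 and 1.68, the highest without the second isotype table, and without the cells holding neutrophil or monocyte counts it was 1.27. At 2000 counts per cell Il12b was found in 7.52% and 5.13% of migratory cells in PD-1 agonist and isotype mice. In thinned neutrophils it was found in 0 of 903 cells of PD-1 agonist mice and 0 of 914 of isotype mice, which allows shares of up to 0.332% and 0.328%. Il15 stood at 66.2 CPM in PD-1 agonist mice and 57.5 CPM in isotype mice, 0.20 (-0.38 to 0.79), and its receptor chain Il15ra at 172 and 119 CPM, 0.53 (0.16 to 0.92). Il1b was higher, at 201 CPM in PD-1 agonist mice and 120 CPM in isotype mice, 0.74 (0.38 to 1.11). Its log2 ratio was 1.63 without the first isotype table, -0.16 without the called doublets, and without the cells holding neutrophil or monocyte counts -0.67. Of 7 measured cytokines 6 were higher and 1 lower, where 47.3% of all measured genes were higher. Among those 6 the interval of Il15 holds 0, as do those of Ebi3, 0.02 (-0.69 to 0.74), and Il6, 0.18 (-0.57 to 0.95). That of Tgfb1, 0.50 (-0.01 to 1.02), also holds 0, and Il1b changed sign as given above.

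The migratory program itself did not differ in one direction. Of 34 measured genes 17 were higher and 17 lower, with a median of -0.01, and 3 were past 1.5-fold higher and 2 lower. Over all 4601 genes 7.74% were past 1.5-fold higher and 5.85% lower, so the counts of this list lay near those shares. Bcl2l14, a BCL-2 family member, stood at 216 CPM in PD-1 agonist mice and 101.3 CPM in isotype mice, 1.09 (0.71 to 1.49). Mreg, a protein of organelle transport, stood at 168 and 108 CPM, 0.64 (0.25 to 1.04). Apol7c, an apolipoprotein L family member that permeabilizes phagosomes in mouse cDC1, stood at 181 CPM in 34 cells of PD-1 agonist mice and 345 CPM in 40 cells of isotype mice, -0.93 (-1.22 to -0.65). Apol7c shares 38.7% of its 31-base stretches with another gene. Ly75 of the uptake list stood at 204 CPM in PD-1 agonist mice and 136 CPM in isotype mice, 0.58 (0.23 to 0.94), with tables at 256, 236 and 223 CPM against 98.8, 152 and 140 CPM.

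NF-kB genes and survival genes stayed within 1.5-fold. None of 26 measured NF-kB genes and none of 14 measured survival genes reached that fold, against 13.6% of all measured genes in either direction, and the medians were -0.05 and -0.01. Without 1 table these medians lay between -0.076 and 0.037 and between -0.0068 and 0.069. Rel stood at 872 CPM in PD-1 agonist mice and 882 CPM in isotype mice, and Relb at 484 and 535 CPM. Tnfaip3, the feedback inhibitor A20, stood at 255 and 348 CPM, -0.45 (-0.71 to -0.19). Of 26 interferon response genes 11 were higher and 15 lower, with a median of -0.09, which was 0.10 without the first isotype table. Irf1 stood at 140 CPM in PD-1 agonist mice and 211 CPM in isotype mice, -0.59 (-0.94 to -0.25).

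Class I presentation genes, which serve CD8 T cells, were 7 higher and 16 lower with a median of -0.10, and B2m stood at 4837 CPM in PD-1 agonist mice and 5364 CPM in isotype mice. Psme2, a proteasome activator subunit, was the 1 gene of 23 past 1.5-fold, against 13.6% of all measured genes in either direction. It stood at 545 and 278 CPM, but 66.2% of its 31-base stretches occur elsewhere. In cDC1 it was 196 and 105 CPM, and in cDC2 162 and 89.3 CPM. Hspa8, a chaperone with 59.4% shared stretches, likewise stood at 743 CPM in PD-1 agonist mice and 1252 CPM in isotype mice, with 753 and 1398 CPM in cDC1 and 617 and 1150 CPM in cDC2. Both genes thus differed in the same direction in all 3 dendritic populations. Of 19 immediate early and stress genes 13 were lower, 5 past 1.5-fold, with a median of -0.28. Over all 4601 genes 2427 were lower, and 5.85% past 1.5-fold lower. For Egr1 and Fosb a single isotype cell held 65.4% and 33.3% of isotype counts. Atf3, a stress-induced repressor, stood at 88.2 CPM in PD-1 agonist mice and 151 CPM in isotype mice, -0.78 (-1.20 to -0.36). Its log2 ratio lay between -1.03 and -0.34 without 1 table, and 1 isotype cell held 24.8% of its isotype counts.

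**Figure D4:**
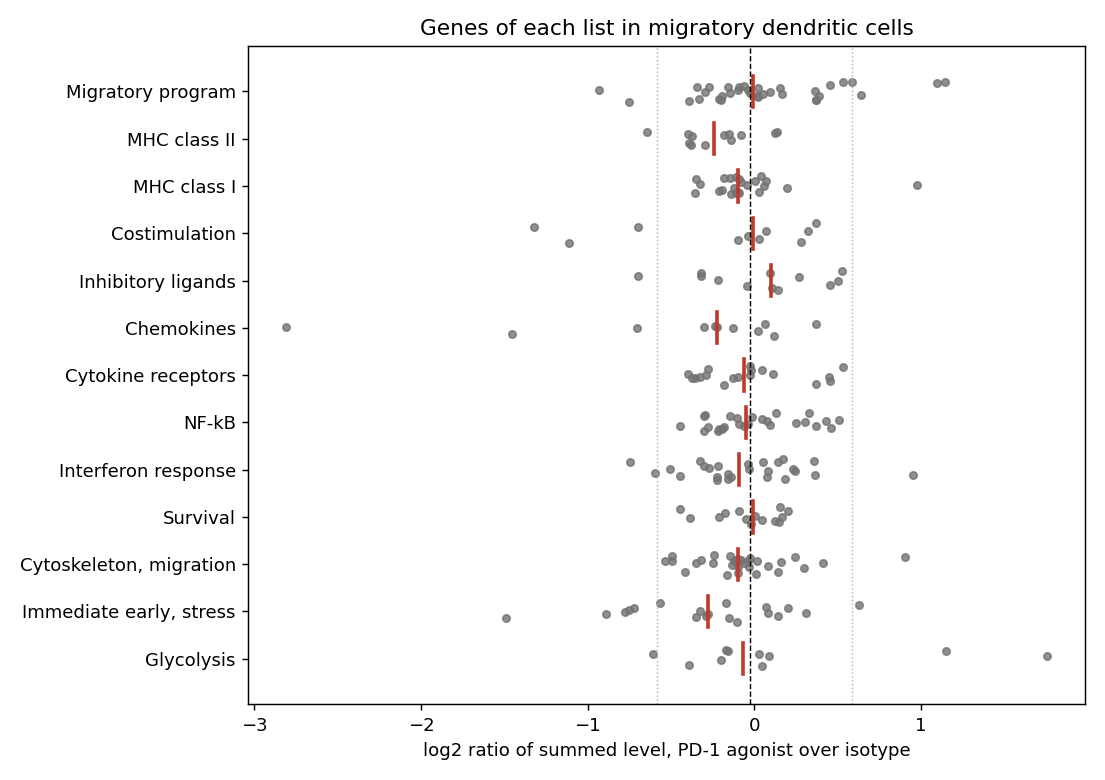
log2 ratio of the summed level in migratory dendritic cells, PD-1 agonist over isotype, with 1 point per gene of at least 50 counts and a red bar at each list's median. The dashed line marks the median of all 4601 genes, -0.02, and dotted lines mark 1.5-fold, and the MHC class II median lies at -0.24.

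Across all genes, the highest ratios belonged in part to genes of other myeloid cells. Genes were ordered by how far their whole interval lay from 0, among protein-coding genes with little shared sequence and no dominant cell. Cebpb, a transcription factor of monocytes and neutrophils, led with 174 CPM in PD-1 agonist mice and 32.5 CPM in isotype mice, a log2 ratio of 2.42 (1.82 to 3.08). Without the cells holding neutrophil or monocyte counts its ratio was 0.74. Pltp, a phospholipid transfer protein, gave 50.7 and 12.5 CPM, 2.02, or 1.29 without those cells. Tpd52, a protein of vesicle traffic, gave 92.6 and 32.5 CPM, 1.51, or 0.65 without those cells, and Klf4, a transcription factor of monocytes and cDC2, gave 1.23, or 0.69. Bcl2l14, Tent5a, Dmtf1 and Dctn1 had 1.09, 1.53, 1.37 and 1.31, and 1.33, 1.57, 1.41 and 1.60 without those cells. Pglyrp1 and Sla made up the 10, at 1.92 and 1.49, and 1.46 and 0.94 without those cells.

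The 9 lower genes given here held their direction without those cells. Kdr, a VEGF receptor, had 14 counts in 9 cells of PD-1 agonist mice and 46 counts in 15 cells of isotype mice, and its log2 ratio of -1.90 (-2.88 to -1.01) lay between -3.36 and -0.99 when 1 table was left out. Pou2f2, the octamer factor OCT2, stood at 28.7 CPM in PD-1 agonist mice and 81.3 CPM in isotype mice, -1.50 (-2.22 to -0.83). Gpr183, also known as EBI2, the oxysterol receptor that positions dendritic cells, stood at 192 CPM in 58 cells of PD-1 agonist mice and 345 CPM in 65 cells of isotype mice, -0.85 (-1.13 to -0.57). Tmem176a, a membrane protein of immature dendritic cells, had the most counts, at 827 CPM in PD-1 agonist mice and 1271 CPM in isotype mice, -0.62 (-0.76 to -0.48). Fabp4, a fatty acid carrier, gave 82.7 and 164 CPM, -0.99, and Nup62 and Magoh gave -1.23 and -1.16. Magoh was at -0.12 with cells thinned to 2000 counts. Icosl and Ccnd1, described above, were also among them. The plot of named genes gives the ratios of all 19.

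**Figure D5:**
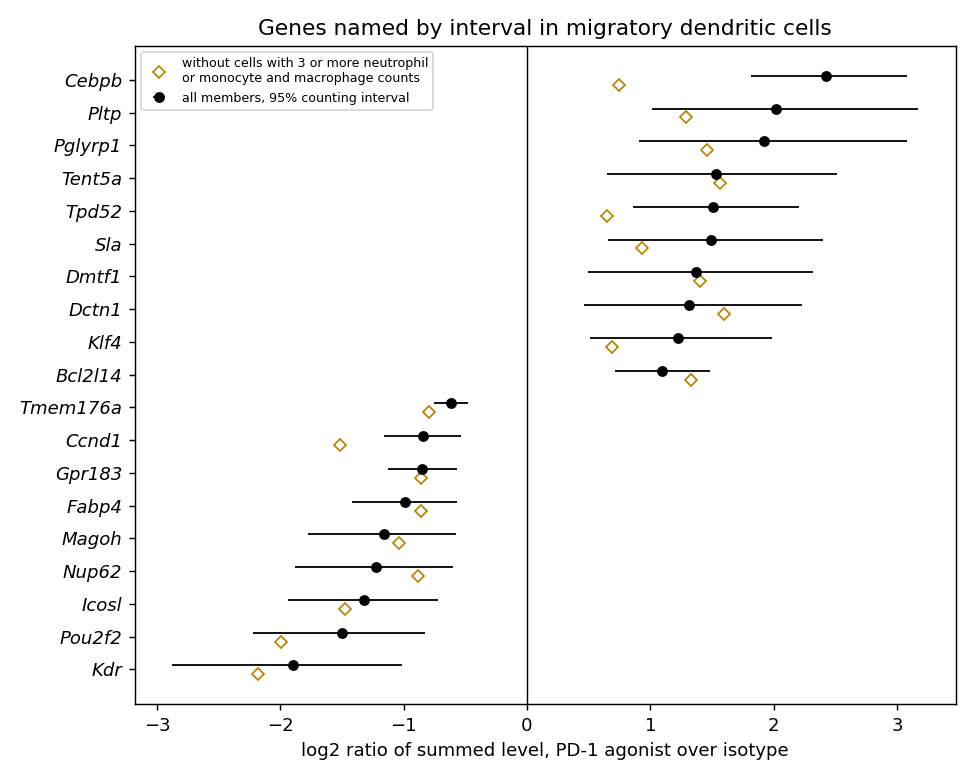
log2 ratio in migratory dendritic cells, PD-1 agonist over isotype, of 10 higher and 9 lower genes picked by interval, as black points with 95% counting intervals, and as open diamonds without cells holding 3 or more neutrophil or monocyte and macrophage counts. Cebpb lies at 2.42 and at 0.74 without those cells, and Gpr183 lies at -0.85 in both.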

How the data were processed

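The deposited tables hold 1 cell per row. Gene values are estimated counts made by the authors, most of them whole and some divided between genes. The total count and the number of expressed genes of each cell were deposited beside them, with the percent of mitochondrial and ribosomal reads as the authors computed it. Partek and mm10 are named per the submitters' processing notes, and for the aligner and counter a name was not given in the sources used here. A barcode found in several tables of a treatment was used once, from the row with the highest total, so each treatment is 1 sample without a test.

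Member counts were summed, rounded to whole numbers and scaled with TMM factors from edgeR 4.0.16 (R 4.3.3). Ratios were computed where a gene had at least 50 counts over both treatments, with exact 95% intervals that cover counting error only. Doublets were kept, and those called by Scrublet (scanpy 1.11.5, with 0.25 as the score limit and 0.1 as the expected rate) were removed only as an alternative. The members and gene lists were chosen with earlier results of these data known. Beside the lists, the 10 genes per direction with the interval bound farthest from 0 were named, of which 1 lower gene is not reported here. They had to be protein-coding, with no cell holding 25% of the counts, less than 10% shared 31-base stretches and the same sign without each table. Ribosomal, mitochondrial, histone and unnamed genes were left out. For each conventional subset, the 10 genes with the largest ratio in both treatments were ranked, and some of them are described. Alternatives changed the tables used, doublets, gene cap, rule strictness, scaling, row choice, top cells, depth and the count minimum.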

Additional observations from a re-analysis of the deposited data

How the results depend on the processing

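The number of genes past 1.5-fold, 625 of 4601, lay between 574 and 627 without 1 table. It was 273 with cells thinned to 2000 counts, 1534 with a minimum of 20 counts and 6957 with a minimum of 1 count, where genes with few counts enter. The log2 ratio of the share of migratory cells, 0.02, lay between -0.02 and 0.23 without 1 table. The MHC class II median of -0.24 was below 0 under every alternative run. It was -0.35 without called doublets, -0.48 with at most 4000 genes per cell, -0.28 with at least 3 partner genes, -0.20 with median-of-ratios scaling, -0.27 without the top cell of each gene, -0.32 thinned, and -0.30 with a minimum of 20 counts or of 1 count. It was -0.45 without the cells holding neutrophil or monocyte counts, an alternative chosen after seeing the data, and lay between -0.38 and -0.16 without 1 table.

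The chemokine median of -0.22 was -0.015 without doublets, -0.27 with at most 4000 genes, 0.39 without the top cells, -0.086 thinned and 0.079 without the cells holding neutrophil or monocyte counts, and lay between -0.26 and 0.047 without 1 table. The migratory program median of -0.01 was -0.041 with at most 4000 genes, 0.034 with median-of-ratios scaling, -0.047 with the mean of a barcode's rows and -0.12 thinned, and lay between -0.03 and 0.02 without 1 table. The NF-kB median of -0.05 was -0.13 with the mean of rows and -0.13 thinned, and lay between -0.076 and 0.037 without 1 table. Il1b, with a log2 ratio of 0.74, changed sign to -0.16 without doublets and to -0.67 without the cells holding neutrophil or monocyte counts. Without 1 table the medians of the costimulation, inhibitory, interferon and survival lists also changed sign. The cause of these shifts was not tested. No paired analysis was possible because tables of a treatment share cells and no result comes from a test.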
